A study of Mus musculus with 12 samples.

Results

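Pan02 is a murine pancreatic ductal adenocarcinoma line, grown here as a tumor under the skin of mice and irradiated in 2 host genotypes. The genes described are those that moved the same way after ionizing radiation (IR) in both. Of the 12 samples of the series, 4 were Pan02 tumors, chosen by their labels. The irradiated tumors of Sirpα-KO mice and of wild-type (WT) mice had received 8 Gy of X-rays in 1 fraction, and each was set against the non-irradiated tumor of the same genotype. All mice were C57BL6 and, by the sample labels, 6 to 8 weeks old (older adults are named elsewhere). Sirpα-KO mice are deficient in SIRPα, an inhibitory receptor of macrophages that binds CD47. Each sample was 1 pool of RNA from 4 mice. An irradiated pool joined 2 mice taken 12 h and 2 mice taken 18 h after IR, so a change at 1 time only cannot be seen, and the sources do not say when the non-irradiated tumors were taken. Tumors were irradiated above 200 mm3, or at 250 to 300 mm3 by another label. With 1 pool per condition no spread between mice was available, and the genotypes served as the 2 pairs of each comparison without being replicates of one another.

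Radiation breaks DNA, activates the p53 pathway, and releases nucleic acids and other danger signals from dying cells. The responses of myeloid and stromal cells in tumors include NF-κB, interferon and IL-6 type cytokine signalling. The SOCS proteins are feedback inhibitors made in response to JAK-STAT signalling. Chemokines such as CCL2 then recruit monocytes, and calprotectin is abundant in neutrophils.

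A panel of mouse immune genes was read on the nCounter platform, where barcoded probes are counted without amplification, and gave normalized counts of 561 genes. Net counts per sample were 93604 after IR and 79210 without IR in Sirpα-KO mice, and 292391 after IR and 403396 without IR in WT mice. The low end of the irradiated Sirpα-KO sample stood apart. Its 20th percentile lay at 49.5 normalized counts, against 6.20 without IR, and the WT samples were at 4.07 after IR and 5.31 without IR. Among 188 genes with a mean under 50 in the Sirpα-KO pair the median log2 ratio was 1.60. Among 215 genes with a mean of 50 to 200 it was 0.93, and among 158 genes with a mean of 200 or more it was 0.22. Lif, Il1r1 and Socs3, described below, lie in the middle band in Sirpα-KO mice. In the WT pair the medians of the same bands were 0.00 for 254 genes, 0.04 for 136 genes and 0.17 for 171 genes. The part of this shift of low and middle genes in any single result was not tested.

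**Figure D1:**
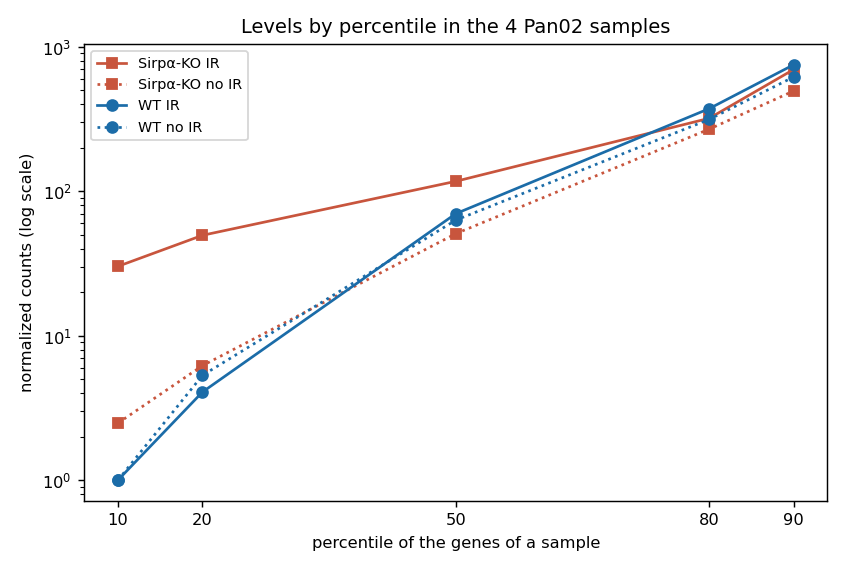
Normalized counts on a log axis at the 10th, 20th, 50th, 80th and 90th percentile of the 561 genes, 1 line per Pan02 sample. The irradiated Sirpα-KO sample lies above the other samples at the low percentiles (49.5 at the 20th) and close to them at the 80th.

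The 14 reference genes of the panel added up to 43973 normalized counts in each of the 4 Pan02 samples, equal to within 0.01. The same held within MC38 at 58124 and within KPC at 25879, each equal to within 0.03. Levels were therefore on a scale of their own within each tumor model. Gapdh, a glycolytic enzyme, made up 47.0% of that total after IR and 47.8% without IR in Sirpα-KO mice, and 27.0% after IR and 38.5% without IR in WT mice. The shifts that follow are for log2 ratios of the values with nothing added to them. Scaling by the total of the reference genes other than Gapdh would lower the log2 ratio of every gene by 0.02 in Sirpα-KO mice and by 0.25 in WT mice. Scaling by the geometric mean of all 14 would lower it by 0.17 in Sirpα-KO mice and by 0.22 in WT mice, and scaling by the median ratio by 0.35 in Sirpα-KO mice and by 0.17 in WT mice.

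A gene was considered where the larger value of each genotype was at least 50 normalized counts, which left 315 genes. Changes are log2 ratios of (value + 10), IR over no IR, in which the added 10 makes the change of a low gene look smaller. Counting intervals (95%) cover counting error only. At 2-fold in both genotypes, 5 of the 315 genes were higher after IR (1.59%) and 0 were lower (0%). In Sirpα-KO mice alone 71 genes were at least 2-fold higher (22.5%) and 2 lower (0.635%), and in WT mice alone 10 were higher (3.17%) and 4 lower (1.27%). The 5 shared genes were Socs1, Lif, Il1r1, Plaur and Socs3, so they cover an IL-6 family cytokine, an IL-1 receptor, the receptor of urokinase and a pair of JAK-STAT inhibitors. By any amount, 156 genes were higher in both genotypes (49.5%), 36 were lower in both (11.4%) and 123 moved in opposite directions. Counts by any amount depend on the scale. The median log2 ratio of these genes in WT mice was 0.12 as deposited, −0.09 under the reference scaling and −0.04 under the median ratio scaling. In Sirpα-KO mice it was 0.46, 0.30 and 0.12.

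**Figure D2:**
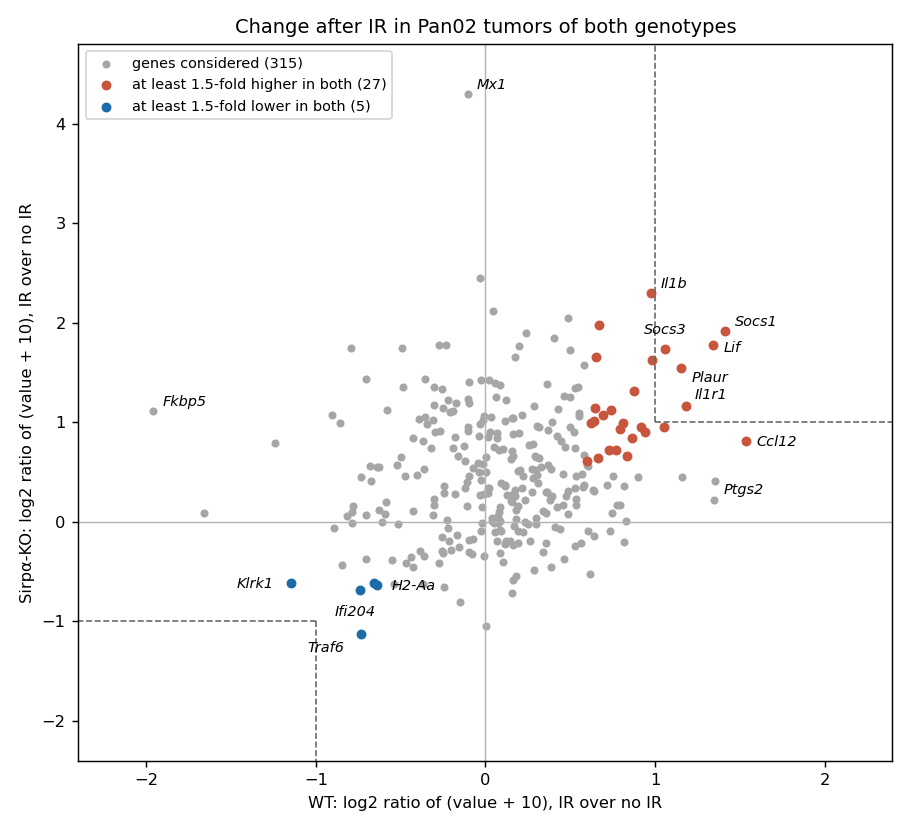
Log2 ratio of (value + 10), IR over no IR, in WT mice (horizontal axis) and in Sirpα-KO mice (vertical axis) for the 315 genes considered. Dashed lines mark 2-fold in both genotypes, and the upper right field holds 5 genes while the lower left field holds 0.

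The promoters of these genes were read from RefSeq (assembly GRCm38.p6) because the genes moved together and include feedback targets of STAT factors and targets of AP-1. Each window runs from 250 bases before the start site to 50 after it and is written 5′ to 3′ on the strand of the gene. Capitals mark letters of 3 motifs, searched on both strands. These are GAAA, any 2 bases and GAAA (the ISRE bound by interferon factors), TTCNNNGAA (the GAS element bound by STAT dimers) and TGANTCA (the AP-1 element). The Socs1 window lies at chr16:10785487-10785786 on the minus strand and holds 2 overlapping ISRE matches, 83 and 77 bases before the start site. The Socs3 window lies at chr11:117969317-117969616 on the minus strand with 1 GAS match, 154 bases before the start. The Lif window at chr11:4257318-4257617 and the Plaur window at chr7:24462233-24462532, both on the plus strand, hold 1 AP-1 match each, 228 and 69 bases before the start.
Socs1: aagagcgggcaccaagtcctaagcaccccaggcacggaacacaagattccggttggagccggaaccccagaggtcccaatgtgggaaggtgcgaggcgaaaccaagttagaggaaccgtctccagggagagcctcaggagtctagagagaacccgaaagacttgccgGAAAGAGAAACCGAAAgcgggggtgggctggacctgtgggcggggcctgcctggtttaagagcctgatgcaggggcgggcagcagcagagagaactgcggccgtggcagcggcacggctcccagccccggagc
Socs3: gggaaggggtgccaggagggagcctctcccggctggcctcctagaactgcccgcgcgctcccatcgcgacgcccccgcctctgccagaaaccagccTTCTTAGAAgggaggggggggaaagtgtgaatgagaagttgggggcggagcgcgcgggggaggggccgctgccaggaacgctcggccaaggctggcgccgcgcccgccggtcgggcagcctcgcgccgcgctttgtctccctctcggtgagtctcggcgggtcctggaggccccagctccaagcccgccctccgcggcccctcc
Lif: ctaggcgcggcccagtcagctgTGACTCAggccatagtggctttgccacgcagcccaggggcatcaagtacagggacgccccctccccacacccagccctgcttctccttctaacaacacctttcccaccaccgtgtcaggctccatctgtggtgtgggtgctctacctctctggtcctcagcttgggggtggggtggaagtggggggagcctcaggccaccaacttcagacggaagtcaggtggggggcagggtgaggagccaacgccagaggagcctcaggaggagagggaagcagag
Plaur: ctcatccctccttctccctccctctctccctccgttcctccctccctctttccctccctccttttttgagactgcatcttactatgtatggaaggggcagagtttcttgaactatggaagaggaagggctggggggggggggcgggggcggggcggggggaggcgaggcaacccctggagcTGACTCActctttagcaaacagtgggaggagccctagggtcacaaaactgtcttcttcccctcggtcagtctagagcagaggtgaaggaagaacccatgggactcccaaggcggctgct
Both listed windows of Il1r1 held none of these letters, nor the NF-κB letters GGGA, any base and TTTCC. Among 32851 promoter windows of the same length, 3.44% hold the ISRE letters, 8.3% the GAS letters, 7.81% the AP-1 letters and 0.411% the NF-κB letters. A match describes the letters of the window and not a bound site.

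Socs1, the JAK inhibitor whose promoter carries the ISRE letters, had 332 normalized counts after IR and 80.7 without IR in Sirpα-KO mice, and 268.5 after IR and 94.4 without IR in WT mice. Both irradiated samples were above both non-irradiated ones, with log2 ratios of 1.92 ± 0.50 in Sirpα-KO mice and 1.42 ± 0.25 in WT mice (95% counting interval). Socs3, the inhibitor of IL-6 family signalling, had 127 after IR and 31.0 without IR in Sirpα-KO mice, and 116 after IR and 50.2 without IR in WT mice, at log2 ratios of 1.74 ± 0.71 (Sirpα-KO) and 1.06 ± 0.34 (WT). Lif, a cytokine of the IL-6 family that signals through gp130, had 173 after IR and 43.4 without IR in Sirpα-KO mice, and 116 after IR and 39.5 without IR in WT mice. Its non-irradiated samples were nearly level between genotypes, and its log2 ratios were 1.77 ± 0.63 (Sirpα-KO) and 1.34 ± 0.35 (WT).

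Plaur, which encodes the receptor that holds urokinase at the cell surface, had 697 normalized counts after IR and 232 without IR in Sirpα-KO mice, and 472 after IR and 207 without IR in WT mice. Its log2 ratios were 1.55 ± 0.32 in Sirpα-KO mice and 1.15 ± 0.18 in WT mice. Plau, urokinase itself, had 192 after IR and 95.5 without IR in Sirpα-KO mice, and 165 after IR and 90.9 without IR in WT mice, just under 2-fold in both at 0.94 (Sirpα-KO) and 0.80 (WT). Receptor and protease were thus both higher after IR without overlap, as were 107 of the 315 genes considered (34%). Il1r1, the signalling receptor of IL-1, had 170.4 after IR and 70.7 without IR in Sirpα-KO mice, and 229 after IR and 95.6 without IR in WT mice. It was the most even of the 5 between genotypes, with log2 ratios of 1.16 ± 0.56 (Sirpα-KO) and 1.18 ± 0.26 (WT).

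**Figure D3:**
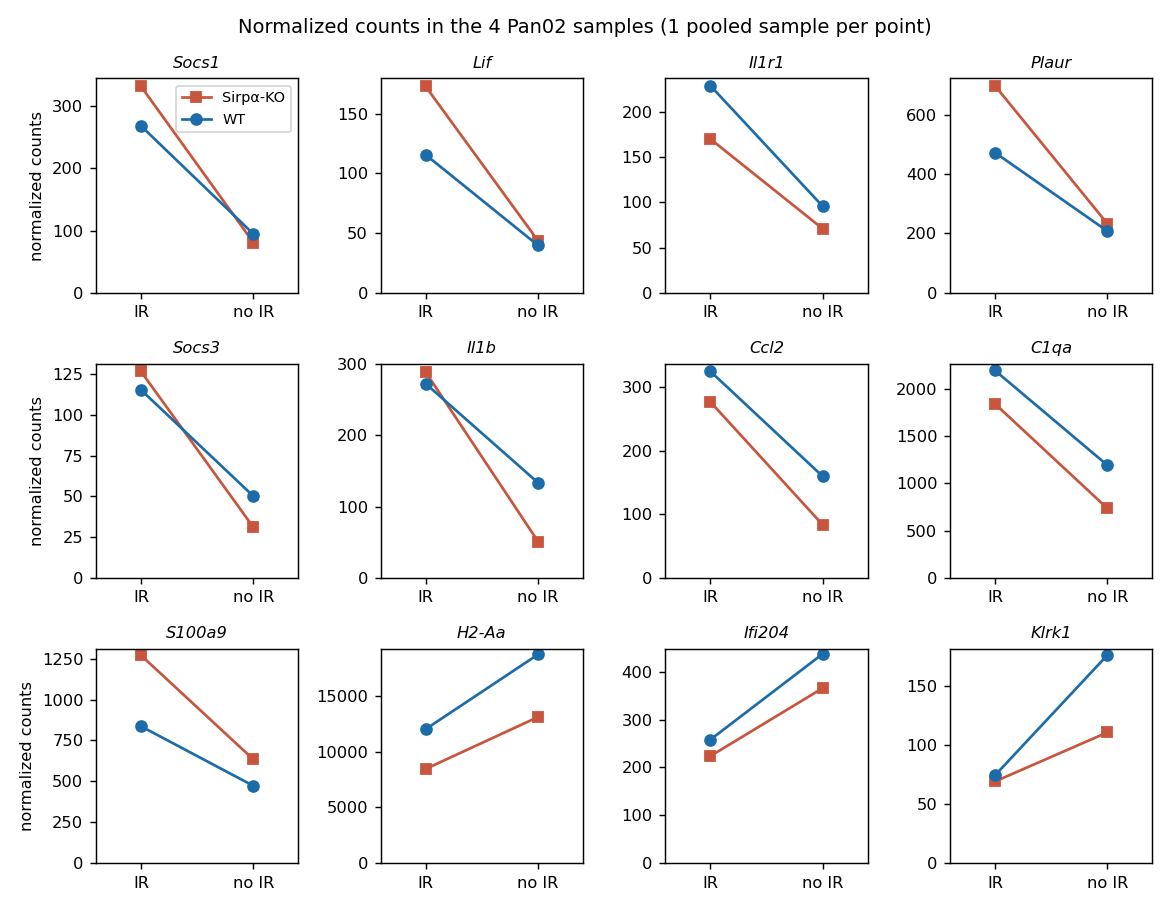
Normalized counts of 12 genes in the 4 Pan02 samples, irradiated left and non-irradiated right in each panel, with squares for Sirpα-KO mice and circles for WT mice and 1 pooled sample per point. In the first 9 panels both irradiated samples lie above both non-irradiated ones (Socs1 332 and 269 against 80.7 and 94.4), and in H2-Aa, Ifi204 and Klrk1 both lie below.

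The 2-fold limit fell inside a continuous run of values. Just outside it were Ccl2 at 1.62 in Sirpα-KO mice and 0.98 in WT mice and Il1b at 2.30 (Sirpα-KO) and 0.98 (WT). Scaling decided the limit for 3 of the 5: Lif and Socs1 stayed past it under each of the 3 other scalings, and Il1r1, Plaur and Socs3 did not. At 1.5-fold, 27 genes were higher in both genotypes (8.57%) and 5 were lower in both (1.59%). Of the 27, 15 stayed at 1.5-fold under the reference scaling, 14 under the median ratio scaling and 14 under the reference scaling without Gapdh. All 5 lower genes stayed under these scalings. Each of the scalings lowered the ratios of these lower genes in both genotypes, so they could hardly drop out and their staying is no test. Of the 27, all but Cd8a and S100a8 (25 genes) had both irradiated samples above both non-irradiated ones, beside 107 of the 315 genes considered (34%), and of the 5 all were below, beside 19 (6.03%). Trem2, Klra4 and Mapkapk2 are outside the rule for naming genes and were added because they belong to the 32.

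Genes of the IL-1 system were among the 27. Il1b, the cytokine itself, had 289 normalized counts after IR and 50.9 without IR in Sirpα-KO mice, and 273 after IR and 133 without IR in WT mice. The irradiated samples were close to each other, and the genotypes differed more without IR. Il1rap, the accessory chain that pairs with Il1r1, had 103 after IR and 18.6 without IR in Sirpα-KO mice, and 65.1 after IR and 37.2 without IR in WT mice. Irak1, the kinase below the receptor, was 1.5-fold higher in both at 0.72 (Sirpα-KO) and 0.77 (WT), whereas Traf6, the ubiquitin ligase that IRAK1 engages, was lower in both. Traf6 had 71.3 after IR and 167.5 without IR in Sirpα-KO mice, and 66.7 after IR and 117 without IR in WT mice, at −1.13 (Sirpα-KO) and −0.73 (WT). In the list of the IL-1 family and inflammasome 9 of 15 genes considered were higher in both and 0 were lower. Of all genes considered 49.5% were higher in both and 11.4% lower, so the share of higher genes was near that of all. The list median was 0.72 in Sirpα-KO mice and 0.17 in WT mice, beside 0.46 (Sirpα-KO) and 0.12 (WT) over all genes considered. In WT mice the list median was −0.03 under the reference scaling and 0.02 under the median ratio scaling, so the count of 9 holds for the deposited scale. Il1a did not reach 50 in either genotype, with 47.1 after IR and 2.48 without IR in Sirpα-KO mice, and 29.3 after IR and 7.08 without IR in WT mice.

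The IL-6 family list had medians of 0.78 in Sirpα-KO mice and 0.41 in WT mice. Beside 49.5% higher and 11.4% lower in both genotypes over all genes considered, 5 of its 6 genes considered were higher and 0 lower. Beside Lif and Socs3 these were Cebpb, a transcription factor of the acute-phase response, at 0.90 (Sirpα-KO) and 0.52 (WT), Il6st, the gp130 chain shared by the family, at 0.66 (Sirpα-KO) and 0.29 (WT), and Stat3 at 0.27 (Sirpα-KO) and 0.15 (WT). Il6 itself was not above the limit in WT mice: it had 66.5 after IR and 2.48 without IR in Sirpα-KO mice, and in WT mice it was at the lowest value of the sample after IR and had 7.08 without IR. Stat5a, a factor of the same JAK-STAT family, was higher in both at 1.14 (Sirpα-KO) and 0.65 (WT).

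Of 9 monocyte chemokine genes considered, 8 were higher in both genotypes, beside 49.5% of all genes considered, and 1, Ccl8, was lower in both. The list medians were 0.52 in Sirpα-KO mice, close to the 0.46 of all genes, and 0.82 in WT mice, against 0.12 over all genes. Ccl2, the ligand of CCR2, had 277 normalized counts after IR and 83.1 without IR in Sirpα-KO mice, and 325 after IR and 159 without IR in WT mice. Ccl12, a murine CCR2 ligand, had 180.03 after IR and 98.0 without IR in Sirpα-KO mice, and 510.1 after IR and 169 without IR in WT mice. Ccl7, a further CCR2 ligand, reached 0.66 in Sirpα-KO mice and 0.83 in WT mice, Cx3cl1, the membrane-bound fractalkine, 0.45 (Sirpα-KO) and 1.16 (WT), and the receptor Ccr2 0.52 (Sirpα-KO) and 0.30 (WT). Ccl8, a related chemokine, had 1011 after IR and 1235 without IR in Sirpα-KO mice, and 678 after IR and 781 without IR in WT mice.

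Among macrophage and monocyte markers 12 of 13 genes considered were higher in both genotypes, beside 49.5% of all genes considered, and 0 were lower. Their medians of 0.56 in Sirpα-KO mice and 0.12 in WT mice were near those of all genes, 0.46 (Sirpα-KO) and 0.12 (WT). The WT median of these markers was −0.09 under the reference scaling and −0.04 under the median ratio scaling, so the count of 12 holds for the deposited scale. C1qa, the first complement component made by tissue macrophages, had 1840 normalized counts after IR and 733 without IR in Sirpα-KO mice, and 2193 after IR and 1190 without IR in WT mice. Emr1, the F4/80 antigen, had 366 after IR and 148 without IR in Sirpα-KO mice, and 504 after IR and 482 without IR in WT mice, and C1qb reached 0.63 (Sirpα-KO) and 0.15 (WT). Trem2, a lipid receptor of macrophages, was at 0.95 (Sirpα-KO) and 0.92 (WT). In bulk tumors, more or fewer cells of a type and more or less RNA per cell cannot be told apart.

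Among neutrophil markers 3 of 4 genes considered were higher in both, beside 49.5% of all genes considered, and the fourth, Itgb2, moved in opposite directions. The list medians were 0.80 in Sirpα-KO mice and 0.57 in WT mice. S100a9, a subunit of calprotectin, had 1272 after IR and 634 without IR in Sirpα-KO mice, and 837 after IR and 472 without IR in WT mice. Its partner S100a8 had 1386 after IR and 907 without IR in Sirpα-KO mice, and 801 after IR and 526 without IR in WT mice, so that its groups overlapped. Csf3r, the G-CSF receptor, was at 1.35 (Sirpα-KO) and 0.55 (WT). T cell and cytotoxic genes had no shared shift. Of 5 T cell genes considered 2 were higher in both and 1 was lower, at medians of 0.89 in Sirpα-KO mice and −0.36 in WT mice. Of 6 cytotoxic genes 0 were higher in both and 2 lower. In the B cell list 3 of 5 genes considered were higher in both and 0 lower, at medians of 0.56 (Sirpα-KO) and 0.18 (WT). Btk of that list, one of the 27, was at 1.08 (Sirpα-KO) and 0.69 (WT). Over all genes considered 49.5% were higher in both and 11.4% lower. Cd8a was the T cell gene among the 27, with 173 after IR and 80.7 without IR in Sirpα-KO mice, and 78.1 after IR and 46.6 without IR in WT mice. The B cell marker Ms4a1 was at 97.9 after IR in Sirpα-KO mice and under 10 in the other samples. Of 10 epithelial markers in the list 1, Muc1, was measured, at 37.5 after IR and 36.0 without IR in Sirpα-KO mice, and 27.7 after IR and 36.0 without IR in WT mice, so the tumor cells themselves were hardly marked by the panel.

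The matrix and TGF-β list had 11 of 14 genes higher in both genotypes and 0 lower, beside 49.5% and 11.4% of all genes considered. Its median of 0.45 in Sirpα-KO mice was that of all genes (0.46), and its median in WT mice was 0.46, against 0.12 over all genes. Beside Plaur and Plau it held Fn1, the fibronectin of the matrix, with 7623 after IR and 5594 without IR in Sirpα-KO mice, and 12396 after IR and 6647 without IR in WT mice. Tgfb3 was at 0.46 (Sirpα-KO) and 0.75 (WT), Cd44, a hyaluronan receptor, at 0.47 (Sirpα-KO) and 0.53 (WT), and Tgfb1 at 0.17 (Sirpα-KO) and 0.78 (WT). Pdgfrb, a receptor of fibroblasts and pericytes, had 76.1 after IR and 36.0 without IR in Sirpα-KO mice, and 129 after IR and 62.5 without IR in WT mice. Its levels were low, and its groups were apart by few counts in Sirpα-KO mice.

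**Figure D4:**
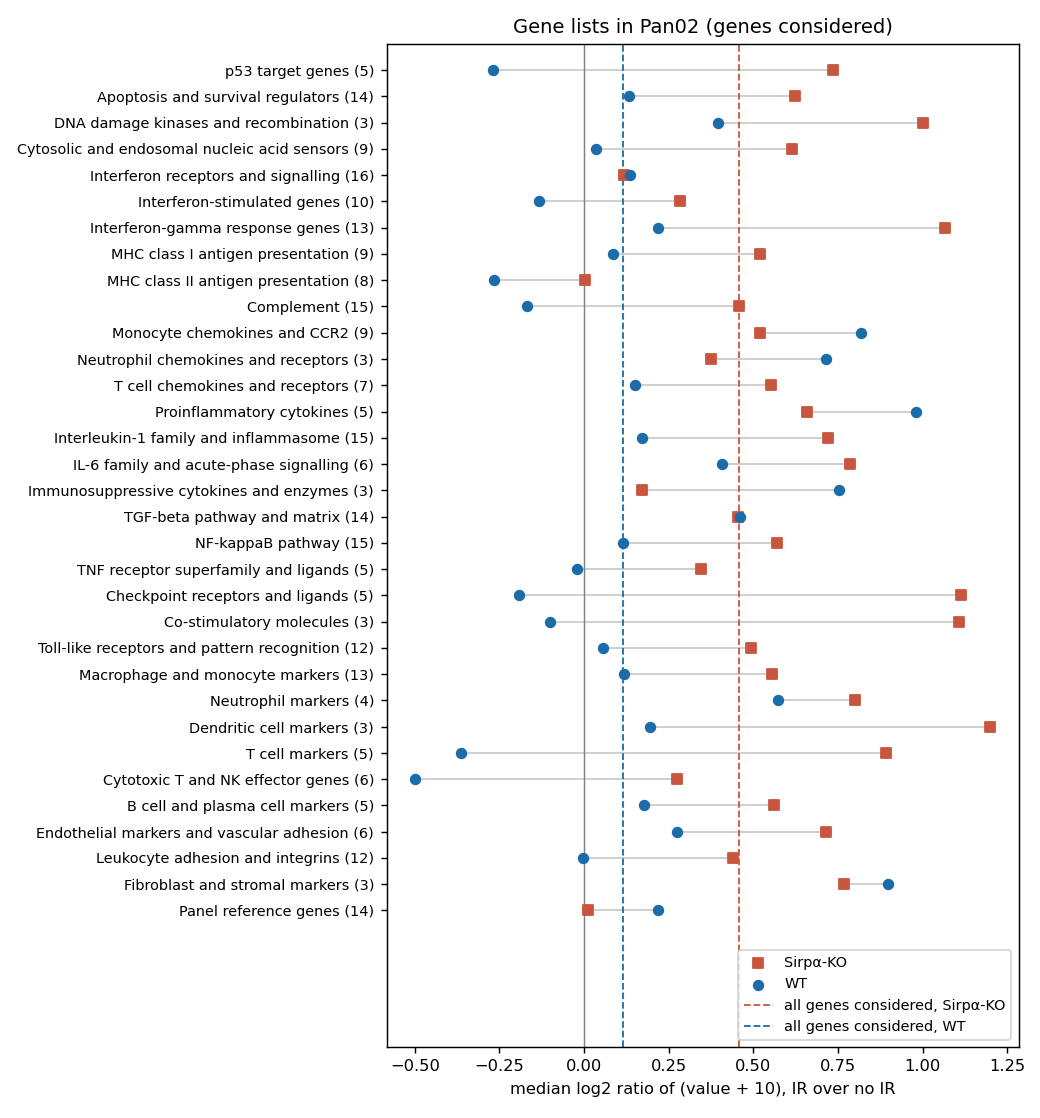
Median log2 ratio of (value + 10), IR over no IR, in Sirpα-KO mice (squares) and WT mice (circles) for each gene list with at least 3 genes considered, with their number in parentheses. Dashed lines mark the medians over all genes considered, 0.46 in Sirpα-KO mice and 0.12 in WT mice. Of the 33 lists 15 lie to the right of the line of each genotype, with monocyte chemokines, proinflammatory cytokines and neutrophil markers among them.

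Of 5 p53 target genes measured, Irf5 and Bax were higher in both genotypes and Cdkn1a was lower in both. Of all genes considered 49.5% were higher in both and 11.4% lower. The list medians were 0.74 in Sirpα-KO mice and −0.27 in WT mice, beside 0.46 (Sirpα-KO) and 0.12 (WT) over all genes considered. The smaller log2 ratios of Irf5 (0.10) and Bax (0.03) were below the shifts of the reference scaling, 0.17 (Sirpα-KO) and 0.22 (WT). Their direction therefore holds for the deposited scale. Cdkn1a, which encodes the p21 inhibitor of the cell cycle, had 257 normalized counts after IR and 339 without IR in Sirpα-KO mice, and 303 after IR and 448 without IR in WT mice. Both irradiated samples were below both others, at −0.38 ± 0.35 (Sirpα-KO) and −0.55 ± 0.17 (WT). Trp53, the gene of p53 itself, was higher, with 228 after IR and 123 without IR in Sirpα-KO mice, and 321 after IR and 172 without IR in WT mice. Bax, a pore protein of mitochondrial apoptosis, had 337 after IR and 329 without IR in Sirpα-KO mice, and 454 after IR and 441 without IR in WT mice, while Bcl2, its antagonist, was at 0.72 (Sirpα-KO) and 0.73 (WT). Fas and Tnfsf10, the death receptor and the TRAIL ligand, moved in opposite directions in the 2 genotypes.

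Fewer genes were lower in both genotypes, and genes of antigen presentation were among them. In the MHC class II list 4 of 8 genes considered were lower in both and 1, Ciita, was higher in both. Of all genes considered 11.4% were lower in both and 49.5% higher. The list medians were 0.00 in Sirpα-KO mice and −0.26 in WT mice. H2-Aa, the class II alpha chain, had 8435 normalized counts after IR and 13103 without IR in Sirpα-KO mice, and 12006 after IR and 18721 without IR in WT mice. Its log2 ratios were nearly equal at −0.63 ± 0.06 (Sirpα-KO) and −0.64 ± 0.03 (WT). H2-Eb1, a class II beta chain, had 883 after IR and 1197 without IR in Sirpα-KO mice, and 1352 after IR and 2437 without IR in WT mice, with overlapping groups, and Ctss, the protease that trims the invariant chain, was at −0.45 (Sirpα-KO) and −0.43 (WT). In the class I list 6 of 9 genes considered were higher in both and 2 were lower, beside 49.5% and 11.4% of all genes considered. The list medians were 0.52 in Sirpα-KO mice and 0.09 in WT mice. The WT median was −0.13 under the reference scaling and −0.08 under the median ratio scaling, so the count of 6 holds for the deposited scale. H2-K1, a class I heavy chain, had 1678 after IR and 2143 without IR in Sirpα-KO mice, and 1853 after IR and 2515 without IR in WT mice, and B2m, its light chain, was at −0.41 (Sirpα-KO) and −0.27 (WT). Members that cut or load peptides were higher: Tapbp, the tapasin of the loading complex, was at 1.07 (Sirpα-KO) and 0.55 (WT), and Psmb5, a proteasome subunit, at 0.95 (Sirpα-KO) and 0.50 (WT).

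The other genes at 1.5-fold lower were Ifi204, Klrk1, Mapkapk2 and Traf6. Ifi204, an interferon-inducible sensor of DNA, had 224 after IR and 366 without IR in Sirpα-KO mice, and 258 after IR and 438 without IR in WT mice. Klrk1, the NKG2D receptor of NK cells and T cells, had 68.9 after IR and 110.4 without IR in Sirpα-KO mice, and 74.0 after IR and 176 without IR in WT mice. Mapkapk2, a kinase below p38, had 199 after IR and 311 without IR in Sirpα-KO mice, and 219.7 after IR and 352 without IR in WT mice. In all 4 the groups did not overlap. Of the interferon receptors, Ifngr1 was lower in both at −0.37 (Sirpα-KO) and −0.70 (WT) and Ifngr2 at −0.30 (Sirpα-KO) and −0.25 (WT).

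The limma fit asked which changes were large against the difference between genotypes in their response. It covered 450 genes that reached 50 in 1 or more of the 4 samples, with genotype as a block and 1 residual degree of freedom, and the variance of a gene was taken from the trend over all genes, so that a gene's own disagreement between genotypes did not enter. Adjusted p-values (Benjamini-Hochberg) under 0.05 called 17 genes that rose (3.78%) and 2 that fell (0.444%). C1qa rose by 1.10 ± 0.18 (log2, SE, limma adjusted p = 1.3e-06), Plaur by 1.35 ± 0.26 (limma adjusted p = 5.2e-05) and Socs1 by 1.67 ± 0.38 (limma adjusted p = 0.0012). S100a9, Il1b, Ccl2, Ccl12, Cebpb, Fn1, Tapbp and Psmb5, described above, rose too. So did Cxcl10, a ligand of CXCR3, Irf1, a factor of the interferon response, Cd274, the PD-L1 checkpoint ligand, Fcer1g, a signalling chain of Fc receptors, and Ptgs2, the cyclooxygenase COX-2, whose log2 ratios were 0.22 in Sirpα-KO mice and 1.35 in WT mice. H2-Aa fell by 0.64 ± 0.19 (limma adjusted p = 0.023) and H2-Eb1 fell by 0.64 ± 0.18 (limma adjusted p = 0.019). Of the 19 genes, 18 moved the same way in both genotypes, 16 had groups that did not overlap and 9 were at least 1.5-fold in both. Of the 315 genes considered, 49.5% were higher and 11.4% lower in both genotypes. Groups did not overlap for 34% (higher) and 6.03% (lower), and 8.57% and 1.59% were at least 1.5-fold. The 19 were called for their mean change in these same samples, so their counts are no separate support. Lif, Il1r1 and Socs3 were not called (limma adjusted p = 0.17, 0.16 and 0.32).

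These calls depended on the fit. With a filter of 100 limma called 0 genes, beside 30 higher and 7 lower at an unadjusted p under 0.05, and 0 were also called with no filter, with no variance trend and by the methods' t-test. A fit of all 12 samples called 8 that rose and 0 that fell, and in that fit 56 rose and 1 fell without the WT pair, and 0 were called without the Sirpα-KO pair (3 higher and 2 lower at an unadjusted p under 0.05). The median ratio scaling called 5 that rose and 1 that fell.

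The remaining call, Mx1, was not shared. Mx1, an antiviral gene under type I interferon, had 1432 normalized counts after IR and 63.3 without IR in Sirpα-KO mice, and 146 after IR and 158 without IR in WT mice. The 4 type I and III interferons measured were under 5 normalized counts without IR and in WT mice, and 0 were considered. Ifna1 had 907 after IR and 2.48 without IR in Sirpα-KO mice, and 3.25 after IR and 1.77 without IR in WT mice. Of 10 interferon-stimulated genes 1, Stat2, was higher in both genotypes and 3 were lower in both, beside 49.5% and 11.4% of all genes considered. The list medians were 0.28 in Sirpα-KO mice and −0.13 in WT mice. In the list of interferon-gamma responses 11 of 13 were higher in both and 0 lower, beside the same 49.5% and 11.4%. Its medians were 1.07 (Sirpα-KO) and 0.22 (WT). The WT median of this list was 0.01 under the reference scaling and 0.06 under the median ratio scaling. Over all genes considered it was −0.09 and −0.04, so the count of 11 holds for the deposited scale. Cxcl10 of this list had 675 after IR and 207 without IR in Sirpα-KO mice, and 462 after IR and 290.3 without IR in WT mice. Fkbp5, a glucocorticoid-inducible chaperone, changed at least 2-fold in opposite directions, with 127 after IR and 53.4 without IR in Sirpα-KO mice, and 77.3 after IR and 329 without IR in WT mice. Its difference between genotypes was not tested.

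The irradiation of MC38 (colorectal) and KPC (pancreatic) tumors, in the same genotypes and with 4 mice per pool, gave a comparison for Pan02. The contrast was the change in Pan02 minus the mean of the changes in MC38 and KPC, over 461 genes with 3 residual degrees of freedom. It called 0 genes that were higher in Pan02 (0%, limma, 5 at an unadjusted p under 0.05) and 27 that were lower (5.86%). The median change after IR was 0.46 in Pan02, 0.73 in MC38 and 0.72 in KPC. In 26 of the 27 the mean change was above 0 in both MC38 and KPC. In Pan02 7 of the 27 were lower after IR in both genotypes, 7 were higher in both and the rest moved in opposite directions. Of the 315 genes considered in Pan02, 11.4% were lower in both and 49.5% higher. The 27 were called for this difference in these same samples. A rise in the other models and a low change in Pan02 are thus favored by the choice, and these counts are no separate support.

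H2-K1 was one of the 7 lower genes, with a difference of −2.05 ± 0.35 (SE, limma adjusted p = 5.2e-05). Its log2 ratios were −0.35 in Sirpα-KO mice and −0.44 in WT mice with Pan02, against 0.20 (Sirpα-KO) and 1.11 (WT) with MC38 and 2.38 (Sirpα-KO) and 2.93 (WT) with KPC. H2-Aa, H2-Eb1, B2m, Ctss, Ifi204 and Klrk1 were the other 6, and the antigen presentation genes among them were higher after IR in both genotypes of MC38. Ifi204 was also lower in KPC, at −0.82 (Sirpα-KO) and −0.41 (WT), and was the exception among the 27. Cd34, a marker of endothelium and progenitors, differed by −2.62 ± 0.40 (limma adjusted p = 8.8e-06), Casp1, the inflammasome protease, by −2.20 ± 0.41 (limma adjusted p = 0.00025), Fcgr4, an Fc receptor of myeloid cells, by −2.0 ± 0.38 and C4a, of complement, by −2.07 ± 0.44. S100a9 was higher in every irradiated sample, yet differed by −2.05 ± 0.48, at 0.99 (Sirpα-KO) and 0.81 (WT) in Pan02, 1.75 (Sirpα-KO) and 1.21 (WT) in MC38 and 4.58 (Sirpα-KO) and 4.28 (WT) in KPC. The non-irradiated KPC samples held 12292 net counts in Sirpα-KO mice and 21576 in WT mice, and their part in the KPC changes was not tested. Against MC38 alone 12 genes were lower, 9 of them among the 27, and the differences of H2-K1 at −1.05, Cd34 at −0.95, Casp1 at −0.85 and S100a9 at −0.58 were not called (limma adjusted p = 0.16, 0.28, 0.36 and 0.97). Of 11 of the 27 that had at least 50 in all 12 samples 9 were called, H2-K1, H2-Aa, H2-Eb1, B2m, Ctss and Ifi204 included. Under the median ratio scaling H2-K1 was still called, while H2-Aa at −0.98, H2-Eb1 at −0.92, B2m at −0.68, Ctss at −0.93 and Ifi204 at −1.01 were not (limma adjusted p = 0.085, 0.23, 0.38, 0.14 and 0.22). Without Gapdh in the scaling, H2-Eb1, B2m and Ifi204 were not called.

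**Figure D5:**
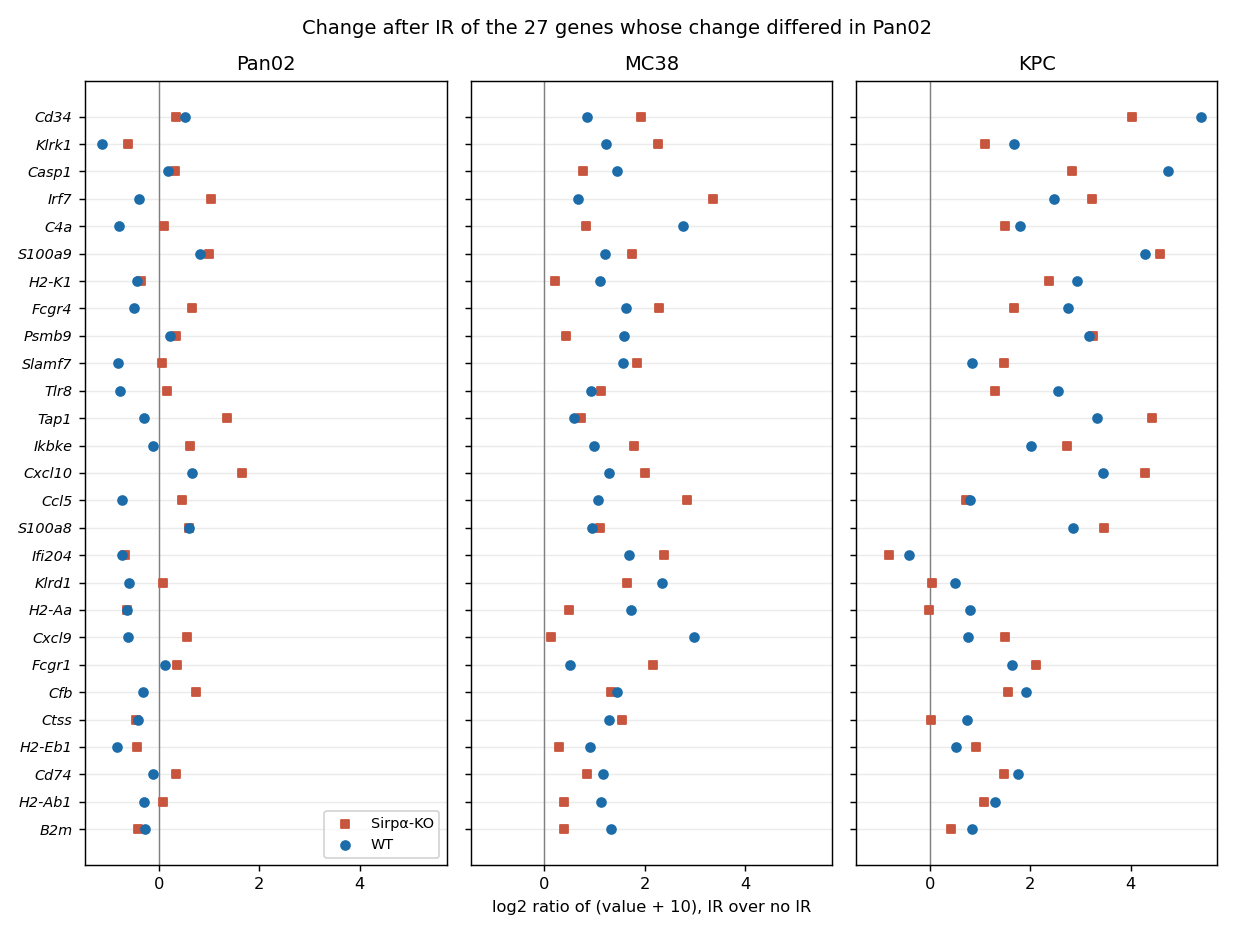
Log2 ratio of (value + 10), IR over no IR, of the 27 genes whose change was lower in Pan02 than the mean of MC38 and KPC, with 1 panel per tumor model, squares for Sirpα-KO and circles for WT mice. In Pan02 the points lie around 0, and in MC38 and KPC nearly all lie to the right of 0 (H2-K1 at −0.35 (Sirpα-KO) and −0.44 (WT) in Pan02).

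The 5 genes at 2-fold in both genotypes were not among these calls. Socs1 was also higher after IR in MC38, at 0.88 in Sirpα-KO mice and 0.90 in WT mice, and in KPC, at 1.10 (Sirpα-KO) and 1.44 (WT). Socs3 was at 0.94 (Sirpα-KO) and 1.24 (WT) in MC38 and 1.28 (Sirpα-KO) and 1.54 (WT) in KPC. Lif was at 0.83 (Sirpα-KO) and 0.02 (WT) in MC38 and 2.73 (Sirpα-KO) and 1.16 (WT) in KPC. Il1r1 was at 0.51 (Sirpα-KO) and 1.51 (WT) in MC38 and 0.88 (Sirpα-KO) and 0.10 (WT) in KPC, and Plaur at 1.14 (Sirpα-KO) and 0.75 (WT) in MC38 but 0.68 (Sirpα-KO) and −0.86 (WT) in KPC. The differences of Pan02 from both models were 0.15 ± 0.61 for Socs3, 0.37 ± 0.63 for Lif, 0.42 ± 0.56 for Il1r1, 0.59 ± 0.43 for Socs1 and 0.92 ± 0.41 for Plaur (log2, SE, limma adjusted p = 0.97, 0.92, 0.88, 0.65 and 0.23), and 0 of the 5 passed the threshold. Plaur did pass it under the median ratio scaling, at 1.31 (limma adjusted p = 0.042), and against KPC alone, at 1.44 (limma adjusted p = 0.0075). Against MC38 alone limma called 0 genes higher, so Plaur was not called there. The KPC contrast rests on the non-irradiated KPC samples of few net counts. The 5 genes were chosen for their rise in these same Pan02 samples. Differences above 0 are favored by that choice and are no separate support.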

How the data were processed

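RNA of 12 bulk tumor samples was read on the nCounter Mouse Immunology Panel. The 4 Pan02 samples were analysed here, with MC38 and KPC for comparison. The deposited signal holds normalized counts that the authors made in nSolver 2.6 after deducting the background of 8 negative controls and applying a factor from 6 positive controls. The sources used here name no scaling to reference genes, although the total of these genes is equal within each tumor model. Both deposited tables agreed in all 6732 gene values and 1 was used. The number of unmapped columns was 0. Net counts were recovered from the steps between values (tolerance 0.1 count) for intervals only. Samples held 79210 to 403396 net counts in Pan02, and 12292 to 261851 in the other 8 samples.

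Log2 ratios of (value + 10) were taken where the larger value of each genotype was at least 50. limma 3.58.1 (R 4.3.3) with a variance trend was run on log2(value + 10) for genes that reached 50 in any sample of the fit, with genotype as a block, and adjusted by Benjamini-Hochberg at 0.05. The procedure was tested on simulated data, where the share of unchanged genes among the calls was above the nominal level. Alternatives were other scalings, pseudocounts (1 and 30), filters, no block, no trend, all 12 samples in 1 fit, the methods' t-test and leaving out a genotype or a tumor model. Scaling without Gapdh and filters on the lowest value were chosen after seeing the data.

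The tumor model, the gene lists and the rule for naming genes were chosen with earlier results of these data known. Named are genes at 2-fold in both genotypes, the 12 smallest adjusted p per direction, up to 4 members per list with the largest shared change, 6 genes per direction that differed from the other models, and genes at 2-fold in opposite directions. Trem2, Klra4, Mapkapk2, Il1a and the 7 lower genes of the comparison between models were added after their values were seen. Some genes are not reported here. Symbols are as deposited: 545 are current in GRCm38.p6, 14 are older names and 2 were not found. Python 3.11.15 and matplotlib 3.10.9 were used.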

Additional observations from a re-analysis of the deposited data

Results flagged for a closer look

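The change after IR was lower in Pan02 than the mean of MC38 and KPC for 27 of 461 genes by limma, and higher for 0. The 6 with the smallest adjusted p differed by −2.62 (Cd34), −2.05 (H2-K1), −2.20 (Casp1), −2.0 (Fcgr4), −2.07 (C4a) and −2.05 (S100a9) on the log2 scale. Fkbp5 moved in opposite directions in the genotypes of Pan02, with a difference of 3.07 (log2, Sirpα-KO minus WT) that was not tested.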

How the results depend on the processing

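Of the 5 genes at least 2-fold higher in both genotypes, 2 stayed under reference scaling, median ratio scaling and reference scaling without Gapdh. The count was 10 with a pseudocount of 1, 3 with 30, 27 (and 5 lower) at 1.5-fold, 0 at 3-fold and 1 with both values of each genotype at least 100. With the limit of 50 set in 1 genotype only, it was 183 (and 3 lower) of 448 genes in Sirpα-KO mice alone and 10 (and 4 lower) of 317 in WT mice alone. A filter of 100 gave 5 and no filter 6.

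The Pan02 fit (17 genes that rose and 2 that fell) gave 11 and 7 under reference scaling, 5 and 1 under median ratio scaling, 3 and 1 without Gapdh, 18 and 1 with a pseudocount of 1, 4 and 0 without the genotype block, and 8 and 0 with all 12 samples in 1 fit. It gave 0 and 0 with a filter of 100 (smallest limma adjusted p = 0.22, 30 and 7 at an unadjusted p under 0.05), no filter (0.58, 29 and 8), no trend (0.68, 6 and 0), genes of at least 100 in all 4 samples (0.29, 21 and 8) and the methods' t-test (0.31, 19 and 6). In the 12-sample fit it gave 56 and 1 without the WT pair, and 0 and 0 without the Sirpα-KO pair (0.60, 3 and 2), where Mx1 reversed to −0.10. The lone pair was then assumed to vary like the other tumor models.

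The 27 lower genes of the comparison between models became 11 (and 2 higher, Plaur among them) under median ratio scaling, 14 without Gapdh, 17 with a pseudocount of 1, 17 with a filter of 100, 2 without a filter, 0 without trend (41 at an unadjusted p under 0.05), 12 against MC38 alone, 55 (and 9 higher, with Plaur) against KPC alone, and 9 with genes of at least 50 in all 12 samples. Of 293 values of named genes under the alternatives, 153 kept direction and status, called or not called. The 153 include all values of Il1r1, Lif and Socs3, which had no call to keep in the main fit. A further 139 kept direction without the call and 1 reversed. Of 33 lists with at least 3 genes considered, 15 had medians above those of all genes in both genotypes, and 14 under each of the planned scalings. Depth limits low genes most in Sirpα-KO mice, where 1 count was worth 2.42 normalized counts after IR and 2.48 without IR. No paired analysis by replicate number was possible because each condition was 1 sample.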
